A study of Mus musculus with 8 samples.

Results

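The cells described here are the astrocytes of the mouse prefrontal cortex (PFC), 554 of the 8997 PFC cells and of the 23687 cells in all that carry a cell type in the deposited annotation. They were chosen by that annotation alone: every PFC barcode named as an astrocyte was looked up in the count matrix of its own library, and all were found. Single-cell RNA sequencing on the 10x Chromium platform gave 4 PFC libraries, 2 from WT and 2 from Setd1a+/- mice, and 4 libraries of the striatum with the same layout. The titles of the striatal libraries read NAc (nucleus accumbens), while the study states that dorsal and ventral striatum were both included. Each library pooled the tissue of 2 untreated males of strain C57BL/6N, labelled as 8 to 10 weeks old, while the methods state a different age. The Setd1a+/- mice carried a frameshift made with CRISPR-Cas9 in exon 15 of Setd1a, the gene of a histone H3K4 methyltransferase, in the germ line and so in every cell type, and the WT mice were their littermates. The cells came from adult slices digested with papain and cleaned on an OptiPrep gradient, so they are the astrocytes that survived dissociation.

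Astrocytes take up glutamate released at synapses and turn it into glutamine, buffer potassium and water around neurons, and touch the vessel wall with their endfeet. They store glycogen, hand lactate and lipoprotein-bound lipid to neurons, and are joined to each other by gap junctions. Their identity in the forebrain is tied to transcription factors such as Sox9 and the nuclear factor I family.

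The 4 markers that define the group were each higher in it than in every other PFC type. Levels are given as CPM, the count of unique molecular identifiers (UMIs) of a gene scaled to a total of 1000000 over the cells of 1 type in 1 library. A UMI tags 1 end of a transcript, so these levels are not divided by gene length. Aldoc, the brain form of the glycolytic enzyme aldolase (chromosome 11, 78322968 to 78327781 of GRCm38), was at 9933 and 9751 CPM in the WT libraries of replicates 1 and 2 and at 11740 and 10182 CPM in the Setd1a+/- libraries. Slc1a3, the glutamate transporter GLAST (chromosome 15, 8634124 to 8710764), was at 3844 and 3219 CPM in WT cells and 2965 and 3598 CPM in Setd1a+/- astrocytes. Both were high in all 4 libraries, with the genotypes side by side. Gja1, which encodes the gap junction protein connexin 43 (chromosome 10, 56377330 to 56402513), was at 2242, 1701, 1487 and 1836 CPM in the order WT replicates 1 and 2, then Setd1a+/- replicates 1 and 2. Acsbg1, an acyl-CoA synthetase for long-chain fatty acids (chromosome 9, 54604877 to 54661870), was at 1231, 1067, 1624 and 1201 CPM in the same order. After every cell was thinned to 1000 UMIs, 100% of astrocytes held an Aldoc UMI, against 6.88% of excitatory neurons (median depth before thinning 2026 and 6546 UMIs), a type that should lack the gene. For Acsbg1 the shares were 69.7% and 0.108%. Oligodendrocyte progenitor cells held a UMI more often than neurons did, with 23.7% for Aldoc and 31.4% for Slc1a3. The highest mean of another type was 310 CPM for Aldoc in microglia, 379 CPM for Slc1a3 in oligodendrocyte progenitor cells, 91.1 CPM for Gja1 in endothelial cells and 25.9 CPM for Acsbg1 in microglia.

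Markers of other types were low in the astrocytes, but not evenly so. The 6 excitatory neuron markers summed to between 25.6 and 106 CPM in the 4 libraries, the microglial markers to between 84.1 and 114 CPM, and the oligodendrocyte markers to between 17.1 and 80.7 CPM. Abundant genes of the oligodendrocyte lineage were higher, at 363 to 693 CPM in sum, and genes of all neurons summed to 86.9 to 378 CPM. Klk6 of mature oligodendrocytes, 9630013A20Rik and Enpp6 of newly formed oligodendrocytes, and C1ql1 of oligodendrocyte progenitor cells had no UMI in any astrocyte. In Setd1a+/- replicate 1, hemoglobin and other blood markers summed to 2914 CPM and endothelial markers to 555 CPM, against 14.7 to 191 CPM and 97.6 to 117 CPM in the other 3 libraries. That library also held the fewest astrocytes. A single astrocyte held 267 of its 271 Hbb-bs UMIs, and a single astrocyte held 39 of its 40 Hba-a1 UMIs. Ly6c1, the highest of the endothelial markers there, was found in 4.76% of its astrocytes. These sums thus rest on few cells. By a rule of 3 or more UMIs of the markers of 1 other type, 10 and 14 WT astrocytes and 5 and 5 Setd1a+/- astrocytes were possible doublets.

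The number of astrocytes differed between libraries of the same genotype. WT replicate 1 held 187 astrocytes among 2623 cells (7.13%, 95% Wilson interval 6.21 to 8.18%), and WT replicate 2 held 130 among 2680 (4.85%, 4.10 to 5.73%). Setd1a+/- replicate 1 held 63 among 2186 (2.88%, 2.26 to 3.67%), and Setd1a+/- replicate 2 held 174 among 1508 (11.5%, 10.0 to 13.2%). These intervals cover counting error only. The Setd1a+/- libraries were thus the lowest and the highest of the 4, with the WT libraries between them. The mean share was 5.99% ± 1.61 (SD, n = 2) in WT and 7.21% ± 6.12 (SD, n = 2) in Setd1a+/- mice, a difference of 1.22 percentage points (two-sided exact permutation test over libraries, p = 1, where 2 against 2 cannot go below 0.333). The difference was -4.25 points within replicate 1 and 6.69 points within replicate 2. Without Setd1a+/- replicate 2 it was -3.11 points. Each astrocyte carried a median of 1744 to 2129 UMIs, and the summed libraries held 414386 and 272784 UMIs in WT cells and 117031 and 368771 in Setd1a+/- astrocytes. No barcode was shared by the astrocytes of 2 libraries.

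**Figure D1:**
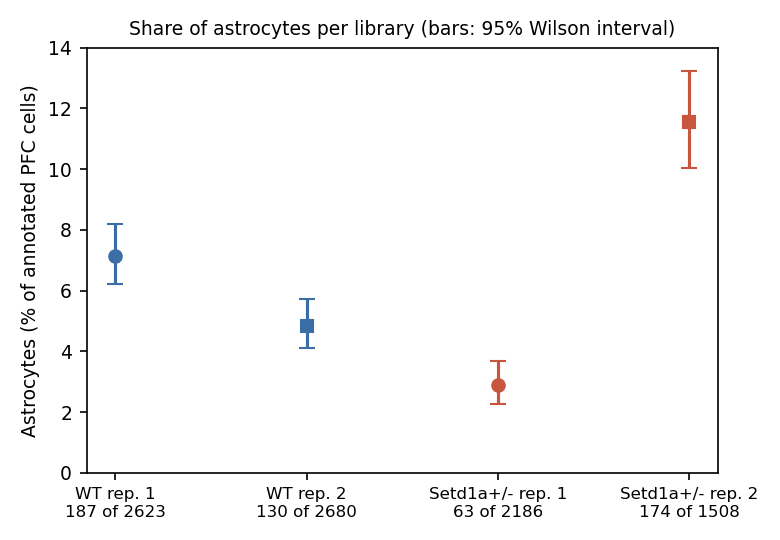
Share of astrocytes among the annotated cells of each PFC library (y axis, percent), with circles for replicate 1, squares for replicate 2 and bars for the 95% Wilson interval. The Setd1a+/- libraries lie at 2.88% and 11.5%, outside the WT values of 7.13% and 4.85% on either side.

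Genes that set the astrocytes apart were found by their ratio to the highest of the 7 other PFC types, taken separately in each library. Of the 1814 genes with at least 10 astrocyte UMIs in every library, 288 (15.9%) were highest in astrocytes in all 4, 72 (3.97%) were at least 4-fold above every other type in all 4, and 27 were at least 10-fold above. The cell types came from a clustering of these same cells, so the counts describe the group and were not tested. Just inside the 4-fold limit lay Hacd2 (lowest ratio 4.05), Rmst (4.06) and Ugp2 (4.14), and just outside lay Naaa (3.88), Gstm1 (3.75) and Thrsp (3.66). For 32 of the 72 genes the highest other type held 3 or fewer UMIs in at least 1 library, so the size of their ratio is imprecise. The 72 genes made up 6.31 to 6.98% of the UMIs of astrocytes, 0.414 to 0.513% of those of oligodendrocyte progenitor cells, the next highest type, and 0.324 to 0.461% of those of droplets with at most 50 UMIs. When genes with at least 3 astrocyte UMIs in each library were taken in, 110 passed the 4-fold limit, and without Setd1a+/- replicate 1, the smallest library, 102 did.

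The 30 leading genes are described by kind, a grouping made after their values were seen. Plcd4, a phospholipase C, was first, with 210, 183, 145 and 198 CPM in astrocytes (WT replicates 1 and 2, then Setd1a+/- replicates 1 and 2) and a mean of 3.96 CPM in oligodendrocyte progenitor cells, the next type. Acsbg1 followed with a lowest ratio of 27.4 and Aldoc with 23.7. Slc25a18, a mitochondrial glutamate carrier, was at 526, 550, 590 and 434 CPM against 16.2 CPM in oligodendrocyte progenitor cells. Phkg1, the catalytic subunit of phosphorylase kinase, was at 363 to 417 CPM, and Prodh, which starts proline breakdown, at 229 to 301 CPM. The 4 values of each of these genes lay closer to each other than to any other type. The fatty acid hydroxylases Cyp4f15 (137 to 209 CPM) and Cyp4f14 (66.0 to 94.0 CPM), the sulfurtransferase Tst (513 to 894 CPM), and Cth (40.3 to 120 CPM), which makes cysteine from cystathionine, were also among the 30 leading genes.

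Several of the leading genes encode membrane proteins. The zinc transporter Slc39a12 was at 359 to 463 CPM, the tight junction protein gene Cldn10 at 1140 to 1581 CPM, and Mlc1, which acts in volume regulation at the endfoot, at 612 to 748 CPM. Slc7a10, the transporter of glycine and D-serine, was at 483, 495, 666 and 488 CPM against a mean of 28.9 CPM in oligodendrocyte progenitor cells. Gjb6, which encodes connexin 30, was at 608, 444, 820 and 442 CPM. Entpd2, an enzyme that breaks down extracellular ATP, was at 146 to 205 CPM, the neurotensin receptor gene Ntsr2 at 350 to 409 CPM, the proteoglycan gene Sdc4 at 197 to 355 CPM, and the scaffold gene Slc9a3r1 at 594 to 752 CPM.

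The remaining leading genes were of mixed roles. Mt1 and Mt2 encode metal-binding metallothioneins and were at 10003, 10822, 5964 and 10974 CPM and at 3716, 3167, 2375 and 3390 CPM, both lowest in Setd1a+/- replicate 1. Sox9, a transcription factor of glial identity, was at 285, 249, 427 and 249 CPM against a mean of 20.1 CPM in endothelial cells. Id4, an inhibitor of DNA binding by other transcription factors, was at 154 to 205 CPM, and Chrdl1, a secreted antagonist of bone morphogenetic proteins, at 55.0 to 147 CPM. Ppp1r3c, which brings a phosphatase to glycogen, was at 142 and 110 CPM in WT cells and 282 and 244 CPM in Setd1a+/- astrocytes. The other leading genes, 2900052N01Rik, Pdzph1, Gm11627 and Eva1a, lay between 66.0 and 453 CPM. All 72 genes were found in GENCODE vM21, on 20 chromosomes, and 70 of them are protein coding, the exceptions being 2900052N01Rik and Rmst.

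**Figure D2:**
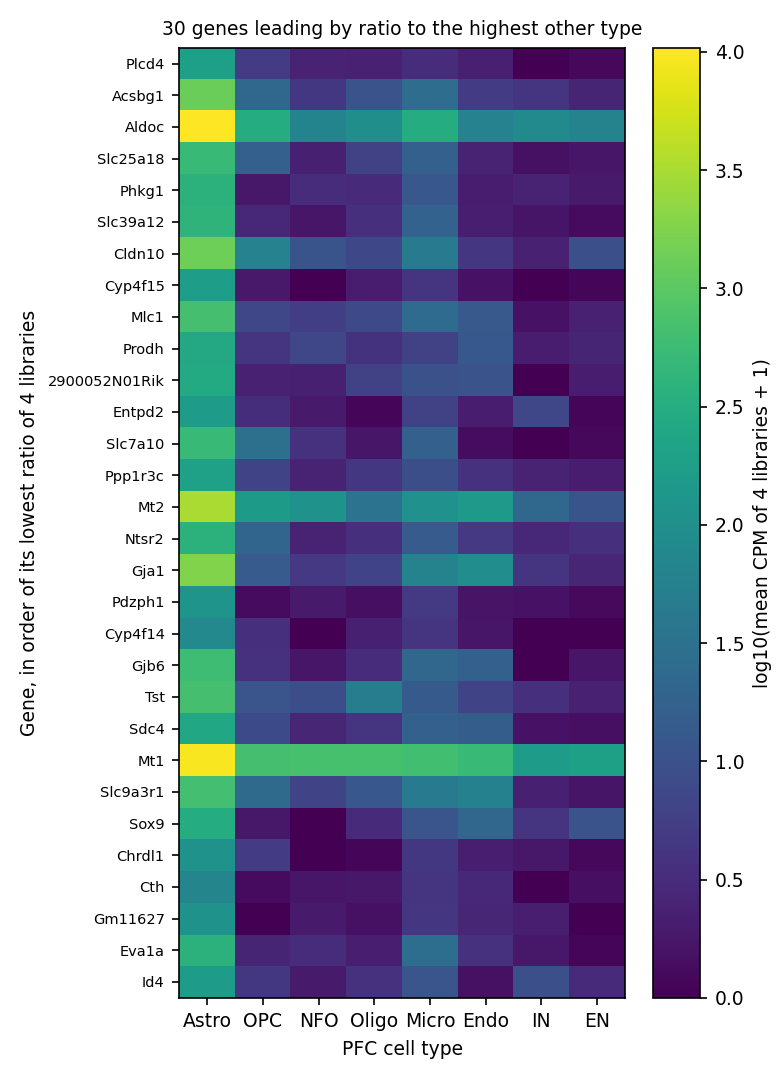
Levels of the 30 leading genes (rows, in order of the lowest ratio) in the 8 annotated PFC cell types (columns), as log10 of the mean CPM of the 4 libraries plus 1. The astrocyte column is the brightest in every row, and oligodendrocyte progenitor cells (OPC) or microglia (Micro) come next in many rows, with 27 and 21 of all 72 genes.

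Most of these genes were also highest in striatal astrocytes, cells that the choice of the genes did not use. The striatal types were also named after clustering on expression, so the counts below describe them and are no separate test. Of the 72 genes, 67 were highest in astrocytes in all 4 striatal libraries, which held 258 and 214 WT and 354 and 31 Setd1a+/- astrocytes, and 40 were at least 4-fold above every other striatal type in all 4. Acsbg1 (mean 784 CPM, lowest ratio 22.1), Slc39a12 (220 CPM, 22.3) and Phkg1 (244 CPM, 16.9) kept a large ratio there. Hopx was at 85.4 to 176 CPM in PFC astrocytes and at a mean of 15.4 CPM in striatal ones, and Dio2, which activates thyroid hormone, was at 169 to 298 CPM against 84.6 CPM. Hopx, Dio2, Paqr8, Cbs and Mfge8 were the 5 genes that were not highest in every striatal library, and they were named after their values were seen. Levels of the tissues were compared as CPM across separate libraries, without a test.

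Promoters of the 3 leading genes are shown to give the sequence around the start sites of genes so restricted to 1 cell type. Each runs from 250 bases before to 50 bases after a RefSeq start (GRCm38.p6, first start listed), 5′ to 3′ on the strand of the gene, with CpG dinucleotides in capitals. Plcd4 is at chr1:74542639-74542938 on the plus strand, Acsbg1 at chr9:54661836-54662135 on the minus strand, and Aldoc at chr11:78322823-78323122 on the plus strand.
Plcd4: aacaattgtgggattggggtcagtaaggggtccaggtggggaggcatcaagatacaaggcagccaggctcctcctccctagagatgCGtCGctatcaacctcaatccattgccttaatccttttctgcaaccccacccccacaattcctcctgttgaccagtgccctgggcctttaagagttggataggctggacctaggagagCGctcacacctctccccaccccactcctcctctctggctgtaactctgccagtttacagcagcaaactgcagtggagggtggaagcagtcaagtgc
Acsbg1: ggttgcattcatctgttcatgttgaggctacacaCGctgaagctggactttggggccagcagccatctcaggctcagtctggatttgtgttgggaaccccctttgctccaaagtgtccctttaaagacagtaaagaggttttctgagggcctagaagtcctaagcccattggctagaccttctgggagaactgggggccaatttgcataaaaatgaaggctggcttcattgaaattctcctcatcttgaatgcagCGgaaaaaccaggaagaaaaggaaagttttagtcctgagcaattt
Aldoc: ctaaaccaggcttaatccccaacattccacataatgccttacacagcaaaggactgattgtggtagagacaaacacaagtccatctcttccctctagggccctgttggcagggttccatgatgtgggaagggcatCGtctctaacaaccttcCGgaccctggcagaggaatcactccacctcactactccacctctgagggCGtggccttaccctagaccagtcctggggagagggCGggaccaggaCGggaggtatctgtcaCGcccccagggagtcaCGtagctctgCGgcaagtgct
These promoters held 3, 2 and 8 CpG dinucleotides. Over the 59 of the 72 genes with a promoter in the RefSeq table the median was 10, against 21 over 1430 promoters of the genes with at least 10 astrocyte UMIs in every library and 11 over 19407 promoters of all genes in the matrices. GC content differed less, with medians of 58.0, 60.7 and 55.3%. The letters TTGGC, to which a monomer of nuclear factor I binds, were searched on both strands and found in 31 of the 59 promoters (52.5%), in 53.3% of the 1430 and in 48.2% of all promoters, so the share was close to the background. The letters ACAAT, a core of SOX sites, also searched on both strands, were in 13 of the 59, in 20.1% of the 1430 and in 29.2% of all promoters. The E-box letters CANNTG were in 72.9, 62.1 and 70.1%. A match is a run of letters and does not show binding.

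Gene lists by role are set beside the 15.9% of all measured genes that were highest in astrocytes. Measured means at least 10 astrocyte UMIs in every library, so list members low in astrocytes dropped out. For example, 11 of 26 receptor genes and 7 of 16 calcium signaling genes were measured. The lists were chosen with earlier results of these data known, so the shares describe the cells and test nothing. Of the 10 genes for glutamate uptake and recycling, 5 were measured. All 5 were highest in astrocytes in all 4 libraries, with a median lowest ratio of 2.53. Slc1a2, the transporter GLT-1, was at 3309 and 3149 CPM in WT cells and 3512 and 3398 CPM in Setd1a+/- astrocytes, against a mean of 556 CPM in excitatory neurons. Glul, glutamine synthetase, was at 5941, 5224, 6503 and 6899 CPM, and oligodendrocytes had a mean of 3511 CPM of it. Slc7a11, the cystine and glutamate exchanger, was at 150 to 393 CPM. Of the 10 genes for the transport of GABA, glycine and other amino acids, 6 were measured. Of these, 3 were highest in astrocytes, among them the GABA transporter Slc6a11 (195 to 341 CPM). Phgdh, which starts serine synthesis, was at 427 to 640 CPM against 403 CPM in oligodendrocytes.

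Coupling, water and ion balance was largely restricted to astrocytes. Of its 11 measured genes 9 were highest in astrocytes and 7 were at least 4-fold above every other type, with a median lowest ratio of 7.50. Aqp4, the water channel of endfeet, was at 432, 389, 402 and 336 CPM, and the bicarbonate cotransporter gene Slc4a4 at 355, 433, 402 and 334 CPM. The sodium pump subunit gene Atp1b2 was at 666 to 1133 CPM. The potassium channel gene Kcnj10 was at 103 to 179 CPM and was not highest in every library, with 116 CPM in newly formed oligodendrocytes. Of the 8 measured genes for barrier support, a list that shares Aqp4, Gja1, Gjb6 and Mlc1 with the list above, 6 were highest in astrocytes.

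Metabolic lists were mixed. For glucose, glycogen and lactate, 4 of 9 genes were highest in astrocytes. Aldoc, the brain glycogen phosphorylase gene Pygb and Pla2g7, which the list also held and which encodes a phospholipase, passed the 4-fold limit. The lactate dehydrogenase gene Ldhb was at 1877 to 2939 CPM against 1036 CPM in microglia, whereas Pgk1 was higher in interneurons. For lipoprotein and lipid handling, 5 of 9 were highest. Apoe was at 4904, 6038, 4102 and 3899 CPM against 2077 CPM in oligodendrocyte progenitor cells, and Clu, another apolipoprotein gene, at 4380, 4176, 2845 and 4754 CPM against 507 CPM. Dbi, which binds acyl-CoA, was higher in oligodendrocyte progenitor cells (5379 CPM) than in astrocytes (2708 to 3930 CPM). For cholesterol synthesis, 7 of 12 genes were highest in astrocytes and 0 reached 4-fold. Msmo1 was at 964 to 1570 CPM against 307 CPM in oligodendrocytes, and Hmgcs1 (293 to 575 CPM), Fdft1 (238 to 470 CPM) and Idi1 (172 to 357 CPM) were the next most abundant of the list. Summed over the list, this pathway was at 3255 to 4653 CPM in astrocytes and at most 1791 CPM in every other type.

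Lists of regulators, receptors and secreted factors were mixed as well. Of the astrocyte transcription factors, 8 of 17 were highest in astrocytes. Sox9, Id4 and Dbx2 passed the 4-fold limit, Id2 was at 774 to 1453 CPM, and Rorb was at 299 to 472 CPM against 105 CPM in excitatory neurons. Id3 (464 to 1333 CPM) and Zbtb20 (671 to 892 CPM) had a higher mean in endothelial cells. Of the receptor genes, 6 of 11 were highest. Fgfr3 (174 to 205 CPM) and F3 (1096 to 2008 CPM), the tissue factor gene, passed the limit. Ntrk2, the receptor of BDNF, was at 770 to 958 CPM, and the receptor subunit genes Gria2 and Gabrb1 were at 590 to 643 and 242 to 427 CPM, the former below the 1046 CPM of excitatory neurons. Of the secreted and synapse-organizing genes, 7 of 17 were highest, including Sparcl1 (2853 to 4930 CPM) and Mfge8 (1547 to 2004 CPM). Cst3 (16026 to 18975 CPM) was highest in microglia, at 98145 CPM, and Ptn (3673 to 4846 CPM) in oligodendrocyte progenitor cells. Of the calcium signaling genes 1 of 7, Plcd4, was highest in astrocytes. S100b, a common astrocyte label, was at 594 to 795 CPM against 2099 CPM in newly formed oligodendrocytes.

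Lists for cell state gave mixed levels. Of the 40 reactive astrocyte genes 2 were measured in every library at 10 or more UMIs, Nupr1 (137 to 228 CPM) and H2-K1 (77.2 to 103 CPM), and 1 of them, Nupr1, was highest in astrocytes. Summed, the reactive genes were at 502 to 675 CPM in astrocytes, 610 to 643 CPM in oligodendrocyte progenitor cells, 82.1 to 281 CPM in neurons and in mature and newly formed oligodendrocytes, at least 1429 CPM in microglia and at least 3951 CPM in endothelial cells. Lcn2 and C3 had no UMI in any of the 554 astrocytes, which allows up to 3 UMIs, and Serpina3n was at a mean of 2 CPM. Of the immediate early and stress genes, 0 of 5 were highest in astrocytes, and summed over the list they were at 1369 to 2717 CPM in astrocytes and at least 15140 CPM in endothelial cells of the same suspensions. Fos was at 82.0, 73.3, 444 and 48.8 CPM, highest in Setd1a+/- replicate 1. A single astrocyte held 34 of the 124 Fos UMIs over the 4 libraries. By the counts per library this cell was in Setd1a+/- replicate 1, so the high value there rests largely on 1 cell. Of the 82 ribosomal protein genes measured, 0 were highest in astrocytes, and ribosomal protein genes made up 3.10% of astrocyte UMIs, the lowest of the 8 types, against 13.8% in microglia. Mitochondrial genes made up 4.02%, and 0 of 9 were highest in astrocytes.

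The lists of H3K4 enzymes, cyclic GMP and leptin receptor signaling were sparse. In each of them 1 gene had 10 or more UMIs in every library, and 0 were highest in astrocytes. Kmt2c, another H3K4 methyltransferase, was at 62.3 to 94.1 CPM and the COMPASS subunit Dpy30 at 51.5 to 103 CPM. Pde6d, a chaperone of lipid-modified proteins, was at 66.0 to 179 CPM, and the guanylate cyclase genes Gucy1a1 and Gucy1b1 were at 46.1 to 60.3 and 25.6 to 55.0 CPM. Leprot was at 36.2 to 85.4 CPM. The receptor gene Lepr had a mean of 1 CPM.

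Genes known to mark astrocytes of certain layers or regions were detected in different shares of the cells. Gfap, the intermediate filament of white matter and reactive astrocytes, had 71 UMIs in 32 of the 554 cells (5.78%) and at most 8 in 1 cell. It was at 21.7, 158, 8.54 and 48.8 CPM in the 4 libraries. After thinning, 3.79% of astrocytes and 0% of oligodendrocytes and excitatory neurons held a Gfap UMI. Mfge8 was found in 80.9% of thinned astrocytes, against 2.07% of oligodendrocytes (95.5% of astrocytes before thinning), Slc7a10 in 38.3% against 0% (63.5% before), and Aqp4 in 33.4% against 0.177% (52.7% before). Chrdl1, a gene of upper cortical layers, was found in 11.7% against 0.0590% (19.9% before). Kcnj10 was found in 11.4% of astrocytes and 10.6% of oligodendrocytes (22.0% of astrocytes before thinning). The median depth of these types was 2026 and 2056 UMIs. At this depth a cell without a UMI cannot be told from one without the transcript.

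Several genes differed between the replicates more than between the genotypes. Among 1648 genes with at least 100 astrocyte UMIs in all, 6 had both values of replicate 1 at least 4-fold below both values of replicate 2 and 1 had them at least 4-fold above, while 0 were 4-fold apart between the genotypes in either direction. Mt3, a metallothionein of the brain, had 4 and 1 UMIs in WT and Setd1a+/- replicate 1 and 1284 and 1469 in replicate 2, which is 4707 and 3984 CPM. The glycolytic genes Eno1 (116 and 85.4 CPM against 1327 and 1603 CPM) and Gapdh (106 and 68.4 against 1067 and 944 CPM) followed, with Bsg, Dtx3 and Fxyd1. Hbb-bs, a beta globin gene of red blood cells, was higher in replicate 1, at 130 and 2316 CPM against 11.0 and 21.7 CPM, but 267 of its 271 UMIs in Setd1a+/- replicate 1 were in 1 astrocyte, and 4 were left there without possible doublets. Fxyd1, a modulator of the sodium pump, was the only one of these 7 among the 72 astrocyte genes.

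**Figure D3:**
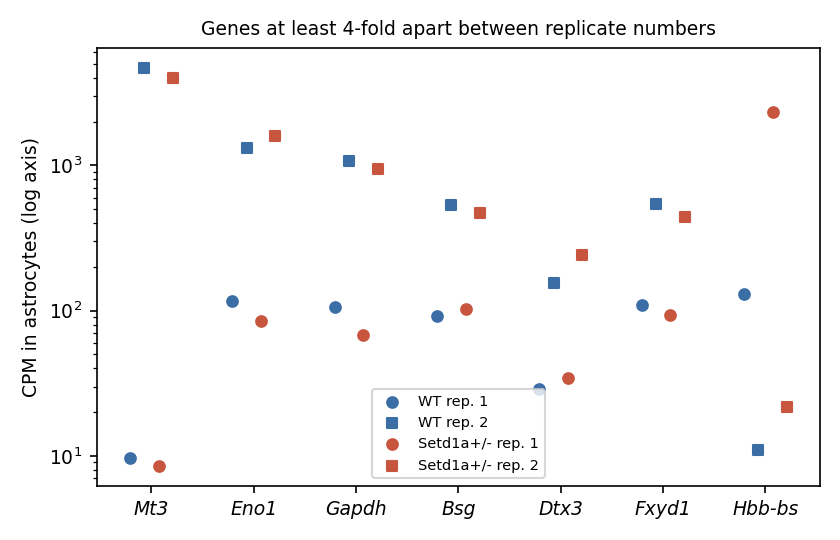
Levels of the 7 genes at least 4-fold apart between replicate numbers in astrocytes (y axis, CPM on a log axis). Circles mark replicate 1 and squares replicate 2, blue WT and orange Setd1a+/-. Mt3 lies at 9.65 and 8.54 CPM in replicate 1 and at 4707 and 3984 CPM in replicate 2. The Hbb-bs point at 2316 CPM rests on 1 cell.

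For the comparison of the genotypes, Setd1a itself was too sparse to check the labels. Setd1a (ENSMUSG00000042308, chromosome 7, 127776670 to 127800122) had 0 and 2 UMIs in WT and 1 and 2 UMIs in Setd1a+/- astrocytes. All 4 values were at or under 3 UMIs, the number a count of 0 allows, so no fold change is given.

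No gene passed the main test between the genotypes, in which the libraries were not paired. Paired by replicate number, 2 genes passed, both resting on few cells. With those cells left out, 3 other genes passed in the paired fit, as described further on. Without a filter on low counts, 6 genes passed in an unpaired fit. UMIs were summed over the astrocytes of each library and tested with edgeR's quasi-likelihood test, and a gene was called at a Benjamini-Hochberg adjusted p (FDR) under 0.05 and a fold change (FC) above 1.5. Of 4318 genes tested 0 (0%) were called, and 56 (1.30%) had an unadjusted p under 0.05, of which 30 were higher and 26 lower in Setd1a+/- astrocytes. DESeq2 also called 0, with 9 genes at an unadjusted p under 0.05. Both Setd1a+/- libraries lay above both WT libraries for 554 genes (12.8%) and below them for 595 (13.8%). In counts simulated from these libraries, this test without a replicate block called 83.4% of the genes changed 4-fold and 0% of those changed 2-fold. The simulation changed many genes at once (181 of 4110 tested for 4-fold, 182 of 4060 for 2-fold) and drew each library independently. These shares therefore do not tell how often a gene would be called if only a few genes changed. A fit with the block was not simulated. 

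The astrocyte markers differed little between the genotypes. Aldoc had a log2 FC of 0.12 (SE 0.19), Slc1a3 of -0.12 (SE 0.25), Gja1 of -0.25 (SE 0.27) and Acsbg1 of 0.26 (SE 0.27), each with an FDR of 1 from edgeR. Over all 12 markers the log2 FC ran from -0.25 for Gja1 to 0.37 for F3. Over the 72 astrocyte genes the median log2 FC was 0.08, against 0.00 over all 4318 genes. Of the 72, 1 gene, Ppp1r3c, had an unadjusted p under 0.05 from edgeR, against 1.30% of all genes. Both Setd1a+/- libraries were above both WT libraries for 12 of the 72 genes and below for 1. Over all 4318 genes this held for 554 (12.8%) and 595 (13.8%), and the difference was not tested. The 72 genes had to hold at least 10 astrocyte UMIs in every library, also in Setd1a+/- replicate 1, the smallest. Genes low in that library were thus left out of the 72. The count of genes above or below, and the median, therefore cannot be compared with those of all genes.

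The gene with the smallest p was Pde10a, a phosphodiesterase that breaks down cyclic AMP and cyclic GMP (chromosome 17, 8525372 to 8986648). It was at 12.1 and 29.3 CPM in WT cells and at 51.3 and 163 CPM in Setd1a+/- astrocytes, from 5, 8, 6 and 60 UMIs. The genes named as higher or lower were picked among those whose groups did not overlap. Of all 4318 genes, 12.8% did not overlap upward and 13.8% downward. Most of the Pde10a UMIs were in Setd1a+/- replicate 2. Its log2 FC was 2.62 (SE 0.60, unadjusted p = 0.000762, FDR 1 from edgeR). In the other PFC cells of the same libraries it was at 36.1, 37.5, 56.3 and 47.8 CPM, and in near-empty droplets at 10.3 to 22.9 CPM. It was called without WT replicate 2 (log2 FC 3.31) and without Setd1a+/- replicate 1 (3.11), whereas without Setd1a+/- replicate 2, which held most of its UMIs, the log2 FC was 1.22 and the FDR 0.878.

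Tsc22d3, a glucocorticoid-induced leucine zipper gene (chromosome X, 140539528 to 140600659), rested on 131 to 502 UMIs per library. It was at 562 and 583 CPM in WT cells and at 1119 and 1361 CPM in Setd1a+/- astrocytes. The values within each genotype lay close together, and the log2 FC was 1.10 (SE 0.29, unadjusted p = 0.00205, FDR 1 from edgeR). Over the 4 fits that leave out 1 library its log2 FC was 0.83 to 1.30, and the gene was called without Setd1a+/- replicate 1. Endothelial cells of the same libraries had 1244 and 1405 CPM in WT cells and 2284 and 2656 CPM in Setd1a+/- mice, and oligodendrocyte progenitor cells 69.0 and 73.0 against 126 and 53.6 CPM. Both Setd1a+/- values were also above both WT values in oligodendrocytes (224 and 159 against 133 and 150 CPM), microglia (567 and 341 against 95.7 and 222 CPM) and interneurons (271 and 245 against 157 and 211 CPM). In striatal astrocytes its log2 FC was 0.10 (unadjusted p = 0.806, edgeR). Near-empty droplets had 208 and 140 CPM in WT libraries and 300.3 and 249 CPM in Setd1a+/- libraries, and the part of free RNA in the astrocyte values was not tested.

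The other genes named as higher were Ppp1r3c, Cyr61, Orc6 and Ppm1a. Ppp1r3c (chromosome 19, 36731731 to 36736653), whose levels are given above, had a log2 FC of 1.02 (SE 0.31, unadjusted p = 0.00571, edgeR) and 0.89 to 1.18 over the fits that leave out 1 library. In striatal astrocytes its log2 FC was -0.29. Cyr61, a secreted matrix protein gene, was at 60.3 and 62.3 CPM in WT cells and at 291 and 94.9 CPM in Setd1a+/- astrocytes. In Setd1a+/- replicate 1, 18 of its 34 UMIs were in 1 cell. Endothelial cells had 1201 and 709 CPM in WT libraries and 1252 and 576.5 CPM in Setd1a+/- libraries. Near-empty droplets had 137 and 38.8 against 127 and 27.9 CPM. The part of free RNA or of other cells in the astrocyte values was not tested. The log2 FC of Cyr61 was 1.46 with all cells and 1.09 without possible doublets. It was 2.11 without Setd1a+/- replicate 2 and 0.68 without Setd1a+/- replicate 1. Orc6, a subunit of the origin recognition complex, was at 36.2 and 14.7 against 128 and 54.2 CPM, and Ppm1a, a protein phosphatase gene, at 19.3 and 22.0 against 76.9 and 46.1 CPM, both from 20 or fewer UMIs per library. All had an FDR of 1. Of Ppm1a, near-empty droplets had 91.4 and 143 CPM in WT libraries and 136 and 151 CPM in Setd1a+/- libraries, above every astrocyte value. Of Orc6 they had 52.0 and 45.7 against 55.5 and 57.0 CPM. For these genes too, the part of free RNA in the astrocyte values was not tested.

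The genes named as lower were Gm42418, Zfp414, Fat3, Cspp1 and Tmx4. Gm42418 (chromosome 17, 39846958 to 39848788) is annotated as a long noncoding RNA and overlaps a ribosomal RNA repeat. It was at 697 and 216 CPM in WT cells and at 42.7 and 136 CPM in Setd1a+/- astrocytes, with a log2 FC of -2.15 (SE 0.53, unadjusted p = 0.00140, FDR 1 from edgeR). Near-empty droplets showed the same gene at 5586 and 682 CPM in WT libraries and 300.3 and 841 CPM in Setd1a+/- libraries, and the other PFC cells at 599.8 and 120 CPM against 28.9 and 81.0 CPM, so WT replicate 1 was highest and Setd1a+/- replicate 1 lowest in all. The part of free RNA in the astrocyte values was not tested. The gene was called without WT replicate 2 and without either Setd1a+/- library, but not without WT replicate 1, where the log2 FC was -1.13. Over the 4 fits it ran from -3.54 to -1.13.

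Of the other lower genes, Zfp414, a zinc finger gene, was at 53.1 and 40.3 CPM against 17.1 and 10.8 CPM. Fat3, an atypical cadherin gene, was at 31.4 and 51.3 CPM against 8.54 and 8.14 CPM, from 1 and 3 UMIs in the Setd1a+/- libraries. Cspp1, a gene of the centrosome and cilium, was at 111 and 99.0 CPM against 25.6 and 59.7 CPM, and Tmx4, a thioredoxin-related membrane protein gene, at 48.3 and 47.7 CPM against 17.1 and 16.3 CPM. Their unadjusted p ran from 0.0142 to 0.0255, with an FDR of 1 for each from edgeR. The Setd1a+/- libraries held 2 and 4 UMIs of Zfp414, 3 and 22 of Cspp1 and 2 and 6 of Tmx4. In Setd1a+/- replicate 1 all these genes were at or under 3 UMIs, the number a count of 0 allows. Tmx4 was at 95.6 to 134 CPM in near-empty droplets, above every astrocyte value, and the part of free RNA was not tested. The log2 FC of Cspp1 was -1.09 with all UMIs and -0.51 with thinned cells.

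**Figure D4:**
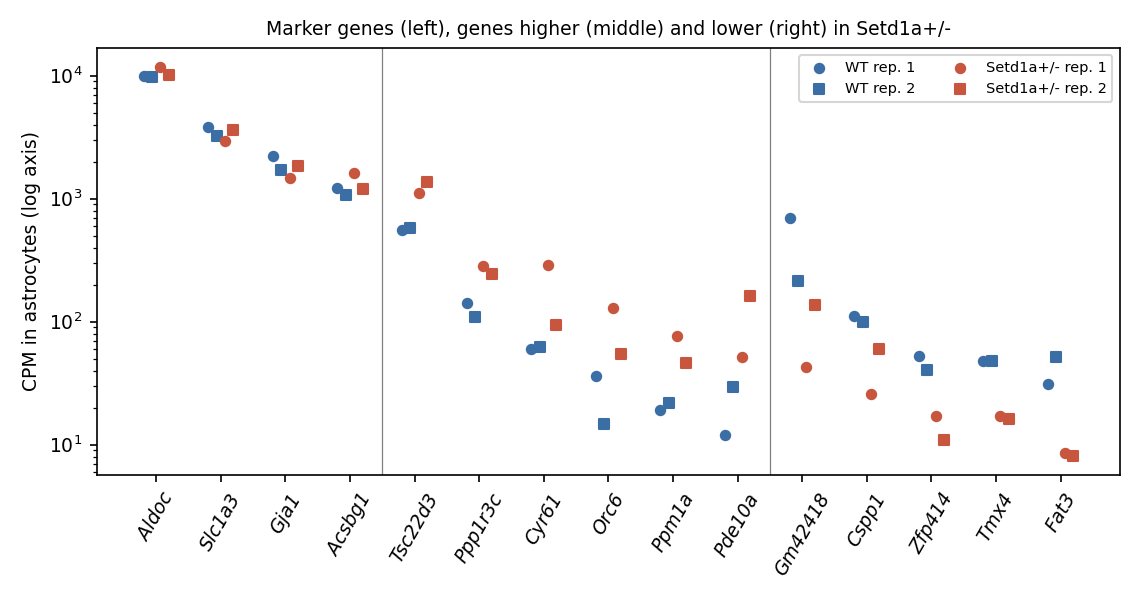
Levels in astrocytes (y axis, CPM on a log axis) of 4 markers, of the 6 genes named as higher and of 5 named as lower in Setd1a+/- astrocytes, with 1 point per library (blue WT, orange Setd1a+/-, circles replicate 1, squares replicate 2). The points of Tsc22d3 lie at 562 and 583 against 1119 and 1361 CPM. The 11 genes were picked among those whose groups do not overlap, and 0 of them had an FDR under 0.05 in the main fit. With the replicate block and without the 5 cells rich in Npy or Hbb-bs, Gm42418, Pde10a and Tsc22d3 did.

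**Figure D5:**
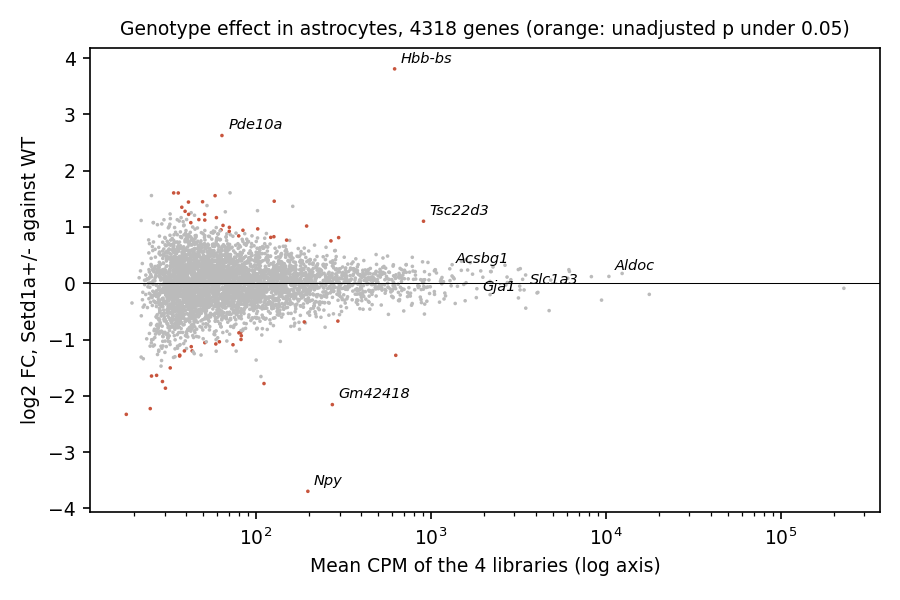
Log2 FC of Setd1a+/- against WT astrocytes (y axis) over the mean CPM of the 4 libraries (x axis, log) for the 4318 genes tested. The 56 genes at an unadjusted p under 0.05 are orange, and 0 were called. Npy and Hbb-bs, at -3.69 and 3.81, lie farthest from 0.

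By role, 0 or 1 member of each list had an unadjusted p under 0.05, against 1.30% of all genes tested. Of 8 tested genes of glutamate uptake and recycling, 6 of GABA, glycine and amino acid transport, 11 of coupling, water and ion balance, 10 of glucose, glycogen and lactate, 22 transcription factors, 16 receptors, 11 of calcium signaling, 5 reactive, 3 metallothionein, 7 immediate early and stress, 3 of leptin receptor signaling, 11 of barrier support and 83 ribosomal protein genes, the number was 0. Their median log2 FC ran from -0.44 for the 5 reactive genes to 0.65 for the 3 leptin receptor signaling genes. Fabp7 was the 1 of 14 in lipid handling and the 1 of 22 regional and subtype genes. Srebf1, a regulator of lipid synthesis, was the 1 of 18 in cholesterol synthesis, whose median log2 FC was 0.16. It was at 111 and 88.0 CPM against 76.9 and 43.4 CPM (log2 FC -0.88, unadjusted p = 0.0493, FDR 1 from edgeR). The synaptic adhesion gene Nlgn1 was the 1 of 22 secreted and synapse-organizing genes, at 62.7 and 55.0 against 25.6 and 27.1 CPM. Kdm5b, an H3K4 demethylase gene, was the 1 of 6 H3K4 enzymes, at 24.1 and 14.7 CPM against 68.4 and 43.4 CPM. Pde10a was the 1 of 4 cyclic GMP genes, and mt-Nd4l the 1 of 12 mitochondrial genes, at 91.7 and 80.7 against 25.6 and 48.8 CPM.

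Pairing the libraries by replicate number changed the number of calls. In a fit blocked on replicate number, edgeR called 2 of 4318 genes (0.0463%), Hbb-bs higher (log2 FC 3.85, FDR 9.58e-05) and Npy lower (log2 FC -4.12, FDR 0.000222) in Setd1a+/- astrocytes, with 149 genes at an unadjusted p under 0.05. Both rested on very few cells. Of the 271 Hbb-bs UMIs of Setd1a+/- replicate 1, 267 were in 1 astrocyte, and the WT libraries held 54 and 3. Of the 197 UMIs of Npy, a neuropeptide gene, in WT replicate 2, 183 were in 4 of 130 astrocytes, whereas the other libraries held 8, 2 and 12 UMIs in the order WT replicate 1, Setd1a+/- replicates 1 and 2. The same 4 cells held 129 of the 131 Apod UMIs of that library and 103 of 394 Fabp7 UMIs. They had 5045 CPM of Aldoc and 2639 CPM of Slc1a3, against 9985 and 3247 CPM in the library's other astrocytes. These cells and counts were looked up after the calls were seen.

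Leaving out the 5 cells, a step chosen after seeing the data, gave 0 calls without the block and 3 with it: Gm42418 (log2 FC -1.81, FDR 1.69e-05), Pde10a (2.28, FDR 0.00230) and Tsc22d3 (1.08, FDR 0.0158), all from edgeR. With the block and all cells, their log2 FC were -1.82, 2.32 and 1.08, with edgeR FDRs of 0.42, 0.067 and 0.18. The FDRs thus moved far more than the fold changes, and why was not tested. After the block and the genotype, 4 libraries leave 1 degree of freedom for the spread of each gene. These FDRs therefore lean on the spread of other genes. Fabp7, a fatty acid binding protein gene, was at 306, 1444, 470 and 296 CPM, with WT replicate 2 far above the rest, and its log2 FC of -1.28 (unadjusted p = 0.0351, edgeR) became 0.30 without that library. Leaving out 1 library at a time gave 9 calls without WT replicate 1, 9 without WT replicate 2, 7 without Setd1a+/- replicate 1 and 40 without Setd1a+/- replicate 2. The last set included Mt3, Eno1, Gapdh, Bsg and Fxyd1, which are 5 of the 6 genes lower in replicate 1 (Dtx3 was not called), and the hemoglobin genes Hbb-bs, Hba-a1 and Hba-a2.

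Against oligodendrocyte progenitor cells, a glial type of like origin with a median of 1651 UMIs per cell, the genotype effect of astrocytes differed for 0 of 6983 genes (0%) at an FDR under 0.05 in edgeR, with the library as a block. An unadjusted p under 0.05 was found for 248 (3.55%), and DESeq2 gave 0 genes at an FDR under 0.05 and 13 at an unadjusted p under 0.05. Among the smallest p were those of Vtn, which encodes vitronectin (difference of log2 FC 3.81, SE 0.94), and Pde10a (2.25, SE 0.57). Vtn, which is also a mural cell marker, was found in 3, 5, 1 and 0 astrocytes of the 4 libraries, and all its 20 UMIs in Setd1a+/- replicate 1 were in 1 cell. It was at 82.1, 44.0, 171 and 0 CPM in astrocytes and at 52.5, 88.7, 5.92 and 5.36 CPM in the progenitor cells, so the astrocyte values overlapped. Without WT replicate 1 the count was 18, and without WT replicate 2 or Setd1a+/- replicate 2 it was 4 in each case.

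Against striatal astrocytes, the genotype effect differed for 0 of 6561 genes (0%) at an FDR under 0.05 in edgeR, and 158 (2.41%) had an unadjusted p under 0.05. DESeq2 gave 0, with 45 at an unadjusted p under 0.05. The smallest p were those of Mynn, a zinc finger gene (difference of log2 FC -3.18, SE 0.93), Plat, which encodes tissue plasminogen activator (-4.04, SE 1.19), and Pde10a (2.77, SE 0.91). Pde10a was at 210 and 59.1 CPM in WT cells and at 152 and 63.7 CPM in Setd1a+/- striatal astrocytes, with the genotypes overlapping, and Mynn and Plat were at most 74.3 CPM in either tissue. With the replicate block 2 genes were called, Npy and Hbb-bt. The count was 2 without PFC WT replicate 1, 1 without PFC WT replicate 2 and 0 without each of the other 6 libraries. Striatal Setd1a+/- replicate 2 held only 31 astrocytes.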

How the data were processed

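The authors made UMI counts per gene and barcode with Cell Ranger 3.0.2 (mm10, per the submitters' processing notes), and these deposited counts cover all droplets without normalization. The authors also deposited a table that gives each kept cell its library and cell type, made by clustering integrated libraries in Seurat 3.2.0 after filters on genes and mitochondrial UMIs. Their other per-cell tables were not used here. The UMIs of the 4 PFC libraries numbered 15154268 to 24594416.

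Astrocyte UMIs were summed per library and tested with edgeR 4.0.16 in R 4.3.3 (quasi-likelihood, TMM, filterByExpr at minimum count 10, p adjusted by Benjamini-Hochberg), which was also tested on simulated data. DESeq2 1.42.0 was an alternative, beside library size scaling, other count filters, left-out libraries, the replicate block, left-out possible doublets and cells thinned to 1000 UMIs. Doublets were not called or removed otherwise. Other steps used Python 3.11.15 with scipy 1.17.1. Interactions were called at an FDR under 0.05 with no fold limit. Gene coordinates came from GENCODE vM21 and promoters from RefSeq.

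By the methods, a biological replicate holds 1 WT and 1 Setd1a+/- library, so equal numbers pair the libraries. The differences between replicates correlated between the genotypes across 4318 genes (r = 0.32), and 0.28 without the 7 genes at least 4-fold apart. The main test has no block, as in the study. Named genes were the 30 with the highest lowest ratio (denominator at least 3 UMIs), the 6 higher and 6 lower genes of smallest p with groups apart, up to 4 abundant members per list and any at an unadjusted p under 0.05, the markers, genes 4-fold apart between replicates, and 3 per interaction. A few genes that this rule names are not reported here. The members and lists were chosen with earlier results of these data known. Standard errors of log2 FC were derived from the quasi-likelihood F. P-values measure the spread between pools of 2 mice. In the main test, without a block, this spread includes the differences between replicate numbers. The common coefficient of variation in edgeR was 0.249 without the block and 0.151 with it.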

Additional observations from a re-analysis of the deposited data

How the results depend on the processing

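In simulated counts the test without a replicate block called 0% of genes changed 2-fold, and Setd1a+/- replicate 1 held only 63 astrocytes. The genotype test called 0 genes also with DESeq2, library size alone, a minimum count of 30, without possible doublets, without mitochondrial and ribosomal protein genes, with thinned cells, and without the 5 astrocytes rich in Npy or Hbb-bs. It called 6 with no filter on low counts (Hbb-bs, Apod, Npy, Hba-a1, Gm42418 and Pde10a), 2 with the replicate block, 3 with the replicate block and without those 5 cells (added after seeing the data), and 7 to 40 with 1 library left out. When a library is left out its genotype has 1 sample, which is assumed to vary like the other group. Against progenitor cells the count was 0 to 18 with 1 library left out. Against striatal astrocytes it was 2 with the replicate block and 0 to 2 with 1 library left out. The comparison with progenitor cells has the library as a block already and was not run with the replicate number, and the cause of these changes was not tested. The difference in share was 1.22 points, 2.28 among non-neuronal cells, 1.22 as the mean of the paired differences (replicate block), and -3.11 to 5.55 with 1 library left out. The number of genes at least 4-fold higher in astrocytes was 72, and it was 110 with at least 3 UMIs, 90 by the mean of the libraries, 70 without possible doublets and 72 to 102 with 1 library left out. The log2 FC turned its sign for Cldn10 (-0.090) and Ntsr2 (0.22) with thinned cells, for Hbb-bs (-1.40) without possible doublets, and for Hbb-bs without the 5 cells (-1.51, and -0.82 with the replicate block). With 1 library left out, it ranged from -2.02 to 0.30 for Fabp7, -0.39 to 0.081 for Slc1a3, -0.047 to 0.22 for Cldn10, -0.014 to 0.13 for Slc1a2, -0.20 to 0.51 for Gjb6, -0.32 to 0.058 for Slc4a4, -0.27 to 0.15 for Ntsr2, -4.70 to 0.55 for Npy and -1.73 to 6.46 for Hbb-bs.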
